A study of Mus musculus with 24 samples.

Results

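The genes described here are the clustered, replication-dependent histone genes of the mouse, measured for H3K27Ac. This mark, acetyl on lysine 27 of histone H3, sits on promoters and enhancers in use. Members were the rows whose symbol has the form of a clustered H1, H2A, H2B, H3 or H4 gene, such as H1f2, H2ac8, H2bc6, H3c3 or H4c8. The rule found 64 of the 27179 genes of the table, namely 6 H1, 17 H2A, 17 H2B, 12 H3 and 12 H4 genes. It used the names and no measured value. H2ac10 had 0 counts in all 8 libraries and was not tested, which leaves 63 members among 26944 genes tested.

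H2A, H2B, H3 and H4 form the core particle around which DNA is wound, and H1 binds the linker DNA between particles. Cells make most of these proteins in S phase from many short genes without introns, whose mRNAs end in a stem-loop instead of a poly(A) tail. The genes lie in clusters that gather at the histone locus body in the nucleus. Adult brain, heart, kidney and liver hold mostly cells outside the cell cycle. Histone variants such as H2A.Z, H3.3 and H1.0 are made by separate genes throughout the cell cycle.

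Chromatin immunoprecipitation with sequencing was run on 4 whole mouse organs in 2 forms. FFPE tissue was fixed in 10% formalin and embedded in paraffin, and chromatin was taken from it at 95 °C over 20 min. Frozen tissue was flash frozen and crosslinked in 1% formaldehyde for 30 min. The groups are brain FFPE, brain Frozen, heart FFPE, heart Frozen, kidney FFPE, kidney Frozen, liver FFPE and liver Frozen, and the table holds 1 column of values for each. No treatment or genetic change is labelled. The sources used here name neither the strain, the age nor the animals, so animal and preservation cannot be told apart. In whole organs, fewer cells carrying the mark and less of the mark per cell cannot be told apart either.

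Values are log2 CPM, the base-2 logarithm of a gene's read count scaled to the size of its library (counts per fixed number of reads, CPM) by the authors. Total counts ran from 4404789 to 6164562 per library. Mitochondrial genes took 12.7% to 36.0% of counts in the FFPE libraries and 4.52% to 5.62% in the Frozen libraries. The spread of values over all genes (median absolute deviation, scaled to an SD) was 2.32 in heart Frozen and 2.37 in liver Frozen, and 1.62 to 1.86 in the other 6 libraries. Of the organ markers, 5 of 5 for neurons, cardiomyocytes, nephron cells and hepatocytes were called higher in their own organ. The marker lists were chosen with earlier results of these data known, so this count is no independent check of organ or quality. Of all genes, 3.19% (kidney) to 11.2% (liver) were called higher in an organ. The histone genes of one type are near-identical copies and how reads that fit several copies were treated was not given in the sources used here, so the split of counts between copies is uncertain.

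The members fall into 5 blocks, taken as runs of members with gaps under 100 kb, a limit chosen after the positions had been seen. Positions are those of RefSeq on GRCm38, the assembly of mm10. Block 1 (chr13:21715711-21837530) holds 18 genes and block 2 (chr13:22035122-22043658) holds 5. Block 3 (chr13:23531044-23764412) is the largest, with 29 genes, H2ac10 and 5 of the 6 H1 genes among them. Block 4 (chr13:23933725-23934913) is the divergent pair H2bc1 and H2ac1, the testis-linked H2B and H2A genes. Block 5 (chr3:96219885-96270192) holds 10 genes and lies on another chromosome.

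Promoter sequences are given to show what the genes of a type share in the DNA before their starts. Entries were found for 59 of the 64 members in RefSeq promoters of GRCm38.p6, as 250 bases before the start and 50 after it. The 150 bases before the start are given 5′ to 3′ on the gene's strand for 6 genes whose H3K27Ac is described below. They are an H1 gene low in brain, the H2A gene with the highest level, the H2B gene of a divergent pair, the H3 gene higher in FFPE, an H4 gene high in heart and the testis-linked H2B gene. Capitals mark these 4 motifs on either strand: the TATA box (searched as TATAAA), the NF-Y site known as the CCAAT box, the octamer bound by Oct-1 (ATTTGCAT) and the H1 box (AAACACA).
H1f2 (chr13:23738657-23738806, + strand): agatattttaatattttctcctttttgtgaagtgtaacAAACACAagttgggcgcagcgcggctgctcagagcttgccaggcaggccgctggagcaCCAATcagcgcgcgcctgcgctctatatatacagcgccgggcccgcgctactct
H2ac21 (chr3:96219735-96219884, + strand): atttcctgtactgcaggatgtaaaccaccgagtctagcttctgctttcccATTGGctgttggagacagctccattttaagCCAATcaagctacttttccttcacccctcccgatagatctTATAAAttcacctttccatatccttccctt
H2bc8 (chr13:23571250-23571399, + strand): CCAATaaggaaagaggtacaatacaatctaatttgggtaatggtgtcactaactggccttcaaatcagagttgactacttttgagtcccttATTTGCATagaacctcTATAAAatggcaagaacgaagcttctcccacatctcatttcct
H3c3 (chr13:23745522-23745671, − strand): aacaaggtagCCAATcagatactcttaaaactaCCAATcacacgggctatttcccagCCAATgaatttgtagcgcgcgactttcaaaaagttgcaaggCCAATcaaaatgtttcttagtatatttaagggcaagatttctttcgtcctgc
H4c8 (chr13:23530894-23531043, + strand): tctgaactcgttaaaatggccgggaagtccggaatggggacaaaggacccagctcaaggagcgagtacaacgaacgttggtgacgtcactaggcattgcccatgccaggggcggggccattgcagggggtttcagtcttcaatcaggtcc
H2bc1 (chr13:23934157-23934306, − strand): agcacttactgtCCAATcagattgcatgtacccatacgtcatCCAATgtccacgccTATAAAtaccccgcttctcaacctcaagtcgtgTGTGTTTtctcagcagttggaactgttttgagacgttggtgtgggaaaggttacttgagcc

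In H1f2 the H1 box lies 112 to 106 bases before the start and the CCAAT box 54 to 50. In H2bc8 the octamer lies 59 to 52 bases before the start and the TATA box 43 to 38. H3c3 has 4 CCAAT boxes and none of the other 3 motifs, and none of the 4 motifs is in the window of H4c8. That window overlaps the annotated gene Gm11335, and the window of H2bc1 overlaps the lncRNA Gm33516. The promoter entries of H2bc23 and H2bc24 were 100% identical, so reads there cannot be told apart.

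The motifs were spread unevenly over the types. Over 250 bases before the start, the CCAAT box was in 6 of 6 H1, 17 of 17 H2A and 15 of 15 H2B promoters. It was in 8 of 10 H3 promoters and in 3 of 11 H4 promoters, where 37.5% of all 27025 promoters held it. The octamer was in 7 of 15 H2B and 6 of 17 H2A promoters and in none of the H1, H3 or H4 windows, where 1.81% of all promoters held it. The H1 box was in 5 of 6 H1 promoters, 2 of 17 H2A and 2 of 15 H2B promoters, against 7.20% of all promoters. TATAAA was in 28 of 59 members, against 14.3% of all promoters. Many of these promoters belong to copies of one ancestral gene, so they are not independent.

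Levels were compared between genes only per kb of the annotated span. The part of a gene over which reads were counted was not given in the sources used here, so a level per kb is a description of the table. Among the 57 tested members with a span under 1 kb, the median level per kb by type and library ran from 4.46 (log2 CPM per kb, H2B, kidney FFPE) to 6.59 (H1, liver Frozen). The 2906 other genes with a span under 1 kb had medians of 1.80 to 2.64 in the 8 libraries. All 5 types thus lay above the median of other short genes in every library, while the range within a type was wide.

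**Figure D1:**
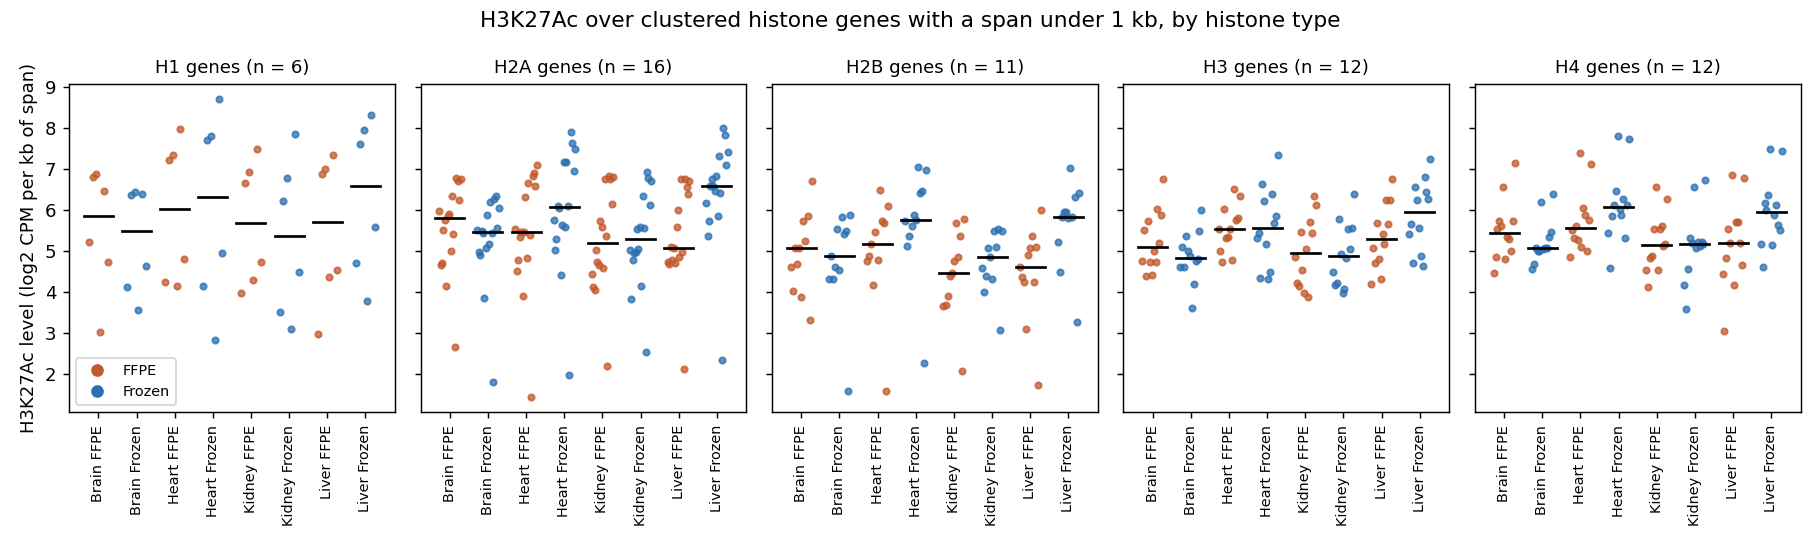
H3K27Ac level (log2 CPM per kb of span) of the 57 tested members with a span under 1 kb, by histone type, in each library, with FFPE in orange and Frozen in blue and the median as a black bar. The type medians lie between 4.46 and 6.59, and the lowest points of the H2A and H2B panels are H2ac1 and H2bc1.

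Among the linker histone genes, H1f2 and H1f4 were the highest. Their mean levels over the 8 libraries were 7.56 and 7.13 log2 CPM per kb. H1f5 (4.11) and the testis-specific H1f6 (3.62) were the lowest, so members of this type differed by several log2 units. H1f1, which is abundant in testis, stood at 4.80.

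Among the H2A genes, the block 5 neighbours H2ac21 (7.03) and H2ac20 (6.93) were the highest in log2 CPM per kb. H2ac1, linked to the testis, was the lowest of those tested, with 2.12. H2ac10 had 0 counts in every library, which allows up to 3 counts each, or at most 0.697 CPM in heart FFPE, the library with the highest such limit. Intervals and limits of this kind cover counting error only. Reads that fit several copies may have been left out of the counts, so the 0 is no limit on the mark at H2ac10.

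Among the H2B genes, H2bc18 (6.16) and H2bc8 (6.08) were the highest. The lowest per kb were H2bc22 (0.16) and H2bc6 (1.56), whose annotated spans of 14079 and 37455 bases dilute the value. All 6 members with a span over 1 kb are H2B genes. H2bc6 also overlaps the lncRNA Gm33387, and its counts can come from either gene. Among H2B genes under 1 kb, testis-linked H2bc1 was the lowest, with 2.36.

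Among the H3 genes, H3c13 (6.61) and H3c1 (5.99) were the highest and H3c2 (4.59) and H3c8 (4.48) the lowest. Among the H4 genes, H4c14 (6.95) and H4c8 (6.92) were the highest and H4c11 (4.70) and H4c12 (4.37) the lowest. Block 5 ranked high as a whole. The median of its 10 genes was 5.93 to 7.17 log2 CPM per kb in the 8 libraries, against 4.11 to 5.38 for the 18 genes of block 1.

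The testis-linked genes of block 4 stayed near the bottom in all 4 organs. H2bc1 had 2.09 log2 CPM in brain FFPE and 0.38 in brain Frozen, 0.35 in heart FFPE and 1.06 in heart Frozen. It had 0.85 in kidney FFPE and 1.86 in kidney Frozen, 0.51 in liver FFPE and 2.05 in liver Frozen. H2ac1 ranged from 0.35 (heart FFPE) to 1.59 (brain FFPE). These values rest on 5 to 23 counts per library, and neither gene was called in any comparison.

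Differences between organs were tested with limma across all genes, each organ against the mean of the other 3, with preservation in the model. The 4 differences of a gene are not independent, since a low value in 1 organ raises the differences of the other 3. A gene was called at a Benjamini-Hochberg adjusted p under 0.05 over the 26944 genes. Counts at an unadjusted p under 0.05 are given for members and listed genes only. No share of all genes was computed at that limit, so these counts cannot be set against the shares called. The model leaves 3 residual degrees of freedom. With 1 column per group, this residual is how the FFPE and Frozen difference varies between organs, not a spread between replicates. The variance of each gene was drawn toward a variance shared over all genes, weighted as 30.6 degrees of freedom. The p-values measure only the spread between these libraries. Over the 4 organs, 17 of the 63 members differed (limma F test), where 34.7% of all genes did. Of the 17, 13 lie in block 3. The count of 17 was 7 without kidney Frozen, 11 without heart Frozen, 28 without brain FFPE and 35 without liver FFPE, and 1 with a variance that does not follow the level.

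**Figure D2:**
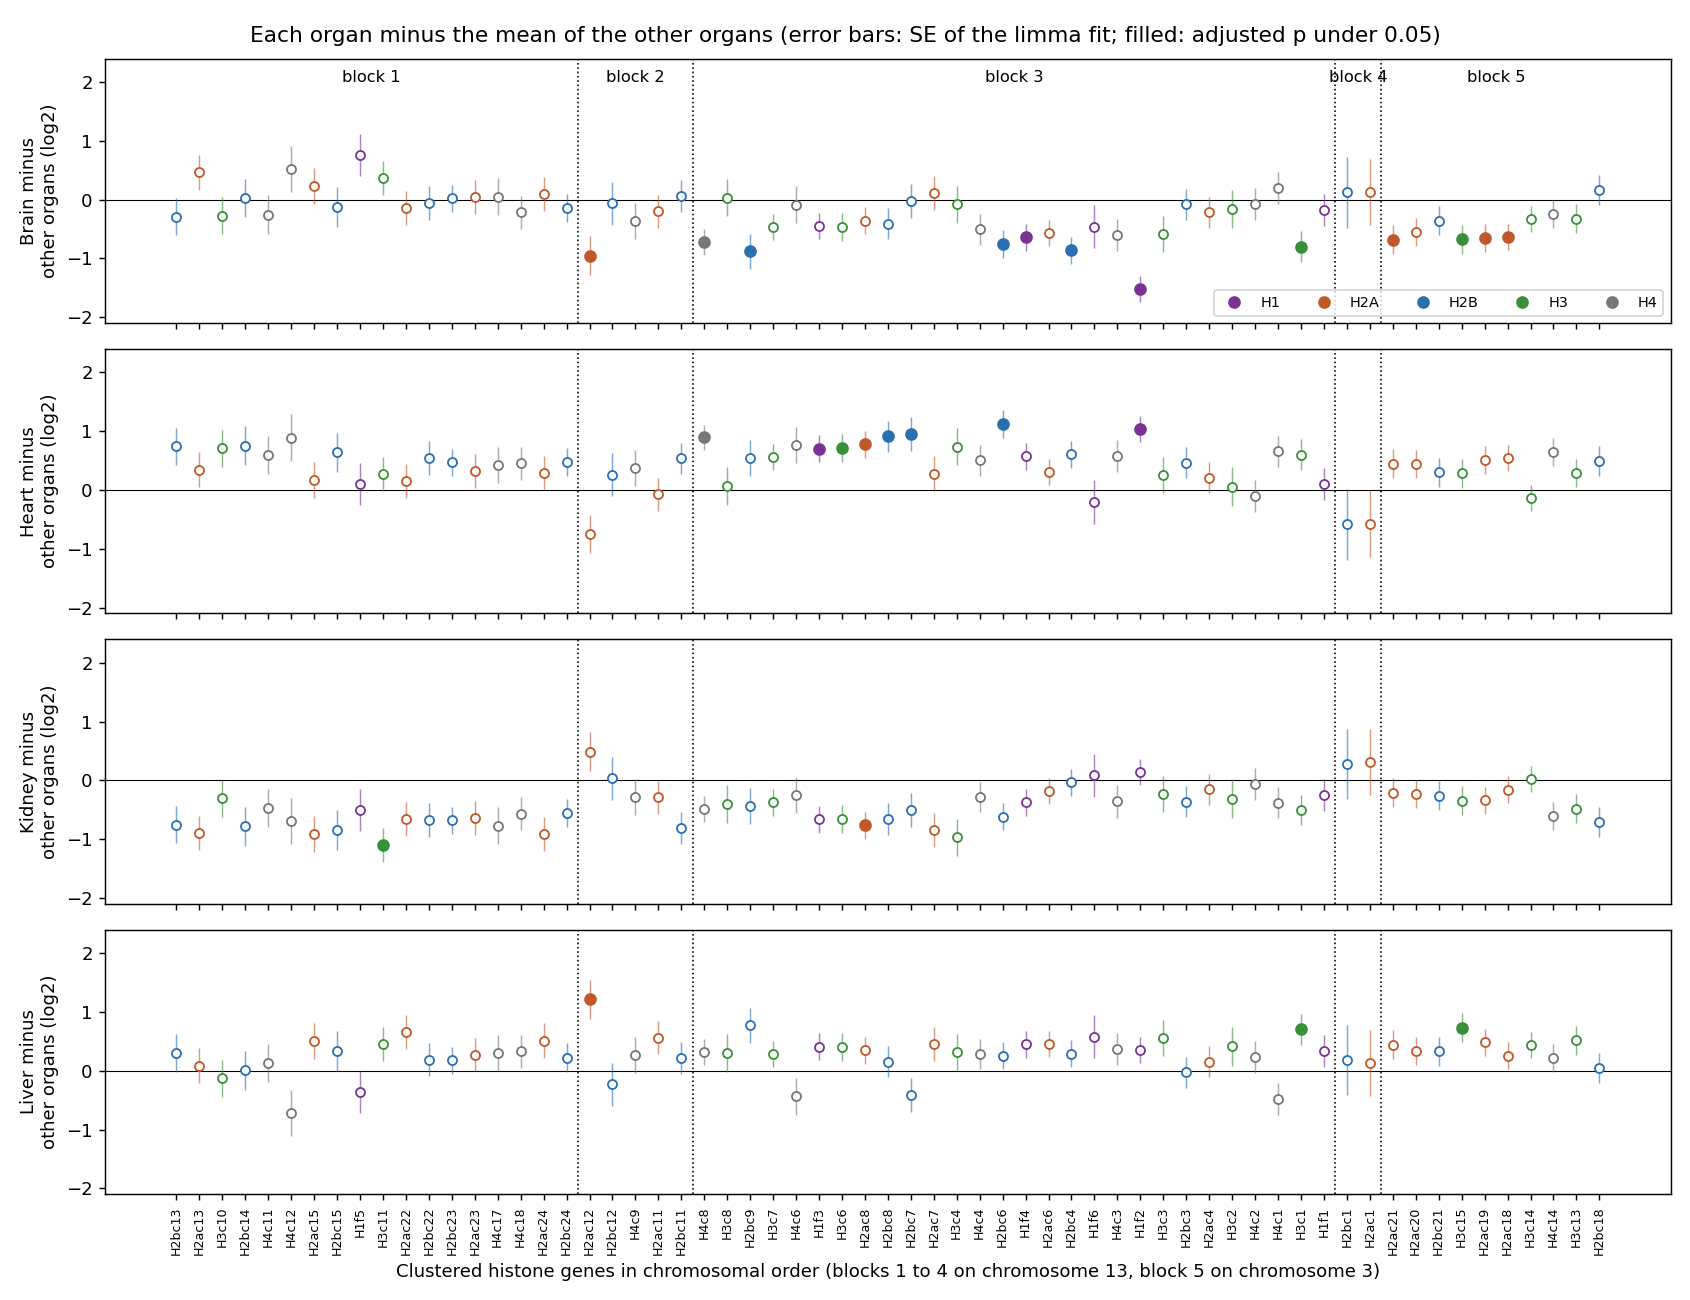
Difference of each organ from the mean of the other 3 organs (log2, with the SE of the limma fit) for the 63 tested members in chromosomal order, coloured by type, with filled points for adjusted p under 0.05. Brain points lie mostly below 0 in blocks 3 and 5, heart points mostly above 0, kidney points below 0 throughout block 1, and liver points mostly above 0.

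In brain, 12 members were lower and 0 higher than in the other organs by limma, with 16 lower and 1 higher at an unadjusted p under 0.05. At the adjusted p, 13.6% of all genes were called lower and 8.73% higher. The median difference of the 63 members was -0.21 (log2), against 0.04 for all genes. Of the 12, 7 lie in block 3, 4 in block 5 and 1 in block 2, and none in block 1, whose median was 0.02. By type they are 2 of 6 H1, 4 of 16 H2A, 3 of 17 H2B, 2 of 12 H3 and 1 of 12 H4 genes.

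H1f2, a main somatic linker histone gene, showed the largest difference. It had 5.99 log2 CPM in brain FFPE and 5.92 in brain Frozen. It had 7.51 and 7.03 and 6.87 in heart, kidney and liver FFPE, and 8.25 and 7.37 and 7.85 in heart, kidney and liver Frozen. Both brain libraries lay below all 6 others. The difference was -1.52 ± 0.22 (SE, limma adjusted p = 3.62e-06), and it was called under each of the 13 alternatives, with adjusted p from 6.43e-08 to 0.0249.

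The other linker gene called, H1f4, differed by -0.64 ± 0.23 (limma adjusted p = 0.0394). H2bc4 had 4.65 log2 CPM in brain FFPE and 4.62 in brain Frozen and 4.98 to 6.01 in the other 6 libraries, again without overlap. Its difference was -0.86 ± 0.23 (limma adjusted p = 0.00509). H2ac6, an H2A gene of the same block, also had both brain libraries (5.29 in FFPE and 5.14 in Frozen) below the other 6, if barely below kidney Frozen, but was not called. Non-overlap of this kind was seen for 3 of 63 members and 11.7% of all genes, and no member had both brain libraries above (13.1% of all genes).

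The remaining 9 genes, like H1f4, overlapped with at least 1 other library. The core histone genes of block 3 were H2bc9 (-0.88), H3c1 (-0.80), H2bc6 (-0.76) and H4c8 (-0.73). In block 5 they were H2ac21 (-0.68), H3c15 (-0.67), H2ac19 (-0.65) and H2ac18 (-0.64), and in block 2 H2ac12 (-0.95). Their limma adjusted p ran from 0.0144 to 0.046. The median of the 63 members was 0.01 without brain Frozen, -0.62 without brain FFPE and -0.38 without liver FFPE. The count of 12 was 1 without brain Frozen, 2 without kidney FFPE, 3 without liver Frozen, 6 without heart Frozen, and 1 with a variance that does not follow the level.

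In heart, 8 members were higher and 0 lower by limma, with 24 higher and 1 lower at an unadjusted p under 0.05. At the adjusted p, 9.42% of all genes were called higher and 7.31% lower. All 8 lie in block 3, so 8 of its 28 tested genes were called. They cover all 5 types, with H1f2 and H1f3, H2ac8, H2bc6, H2bc7 and H2bc8, H3c6 and H4c8. The median difference of all members was 0.47 (log2), against -0.04 for all genes, and 56 of 63 were positive. The median was 0.30 without heart Frozen and 0.30 without brain Frozen, with 54 of 63 positive in each case. By block, with all libraries, it was 0.58 in block 3, 0.46 in block 1 and 0.45 in block 5. Positive there were 26 of 28, 18 of 18 and 9 of 10 genes. Block 2 had 0.26 with 3 of 5 positive, and block 4 had -0.58 with 0 of 2 positive.

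H2bc6 stood at 7.44 log2 CPM in FFPE heart and 7.81 in Frozen heart. In the other FFPE libraries it had 6.43, 6.54 and 6.52 in brain, kidney and liver, and in the other Frozen libraries 6.0, 6.10 and 7.43. Both heart libraries lay above the other 6, by a small margin over liver Frozen. The difference was 1.12 ± 0.23 (limma adjusted p = 0.000629).

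H1f2 had heart levels of 7.51 (FFPE) and 8.25 (Frozen) log2 CPM, and its other values are those given for brain. Its heart FFPE value lay within the range of the other organs. The difference was 1.04 ± 0.22 (limma adjusted p = 0.000864). H4c8 had 6.18 in heart FFPE and 6.60 in heart Frozen and 4.99 to 6.29 in the other 6 libraries, so that liver Frozen overlapped, with a difference of 0.89 ± 0.22 (limma adjusted p = 0.00367).

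The divergent neighbours H2ac8 (0.78) and H2bc8 (0.91) were both called, as were H2bc7 (0.95), H3c6 (0.72) and H1f3 (0.70), with limma adjusted p from 0.0146 to 0.0343. Besides H2bc6, H4c1 had both heart libraries above the other 6. That is 2 of 63 members without overlap, against 8.94% of all genes, and none had both below (6.4% of all genes). The count of 8 was 0 without heart Frozen or with a variance that does not follow the level, and 3 without kidney Frozen. It was 20 without brain FFPE and 21 without liver Frozen.

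**Figure D3:**
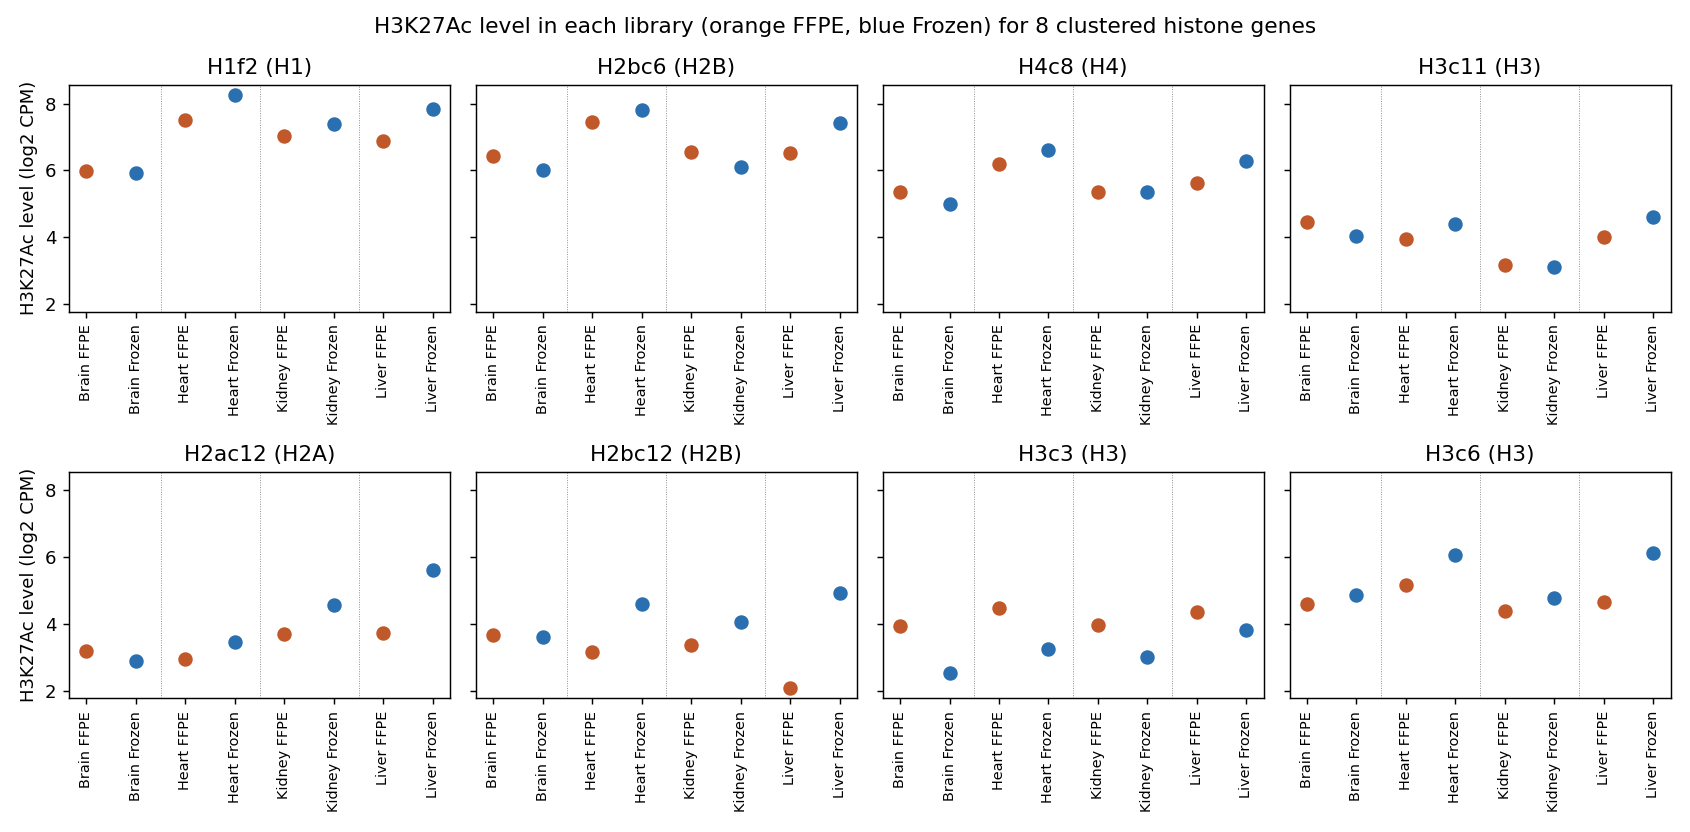
H3K27Ac level (log2 CPM) in each library, with FFPE in orange and Frozen in blue, for 8 of the members called in a comparison. H1f2 is lowest in both brain libraries (5.99 and 5.92), H3c11 lowest in both kidney libraries (3.17 and 3.10), and all FFPE points of H3c3 lie above all of its Frozen points.

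In kidney, 2 members were lower and 0 higher by limma, with 24 lower and 0 higher at an unadjusted p under 0.05. At the adjusted p, 2.03% of all genes were called lower and 3.19% higher. The median difference was -0.44 (log2), against -0.02 for all genes, and 56 of 63 members were negative. Without kidney Frozen the median was -0.22, with 16 of 63 members positive, and without brain FFPE it was -0.28. All 18 genes of block 1 were negative, with a median of -0.69. All 12 H4 genes were negative too, with a median of -0.42, although none was called.

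H3c11, an H3 gene of block 1, had 3.17 log2 CPM in kidney FFPE and 3.10 in kidney Frozen. It had 4.46, 3.95 and 4.01 in brain, heart and liver FFPE and 4.03, 4.39 and 4.60 in brain, heart and liver Frozen. Both kidney libraries lay below the other 6. The difference was -1.10 ± 0.29 (limma adjusted p = 0.0162).

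H2ac8, the H2A gene higher in heart, had 4.73 in kidney FFPE and 4.75 in kidney Frozen and 5.04 to 6.31 log2 CPM in the other 6 libraries. Its difference was -0.77 ± 0.23 (limma adjusted p = 0.0415). In all, 13 of 63 members had both kidney libraries below the other 6, where 2.92% of all genes did, and none had both above (4.76% of all genes). Besides H3c11 and H2ac8 they are H2bc11, H2bc14, H2bc18, H2bc22, H2bc23, H2bc24, H2ac7, H2ac15, H2ac24, H3c4 and H3c8, named here because they make up this count. Of the 13, 7 lie in block 1.

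The kidney call rests on few libraries. The count of 2 was 0 without kidney FFPE, without kidney Frozen or with a variance that does not follow the level, 1 without brain FFPE or liver Frozen, 14 without brain Frozen and 16 without liver FFPE. Quantile normalization gave 9, and so did setting all libraries to the same median and spread.

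In liver, 3 members were higher and 0 lower by limma, with 7 higher and 0 lower at an unadjusted p under 0.05. At the adjusted p, 11.2% of all genes were called higher and 9.73% lower. The median difference was 0.30 (log2), against -0.06 for all genes, and 55 of 63 were positive, with all 16 H2A genes and all 10 genes of block 5 among them. H2ac12 had 3.75 log2 CPM in liver FFPE and 5.63 in liver Frozen. It had 3.21, 2.96 and 3.70 in brain, heart and kidney FFPE and 2.91, 3.47 and 4.58 in brain, heart and kidney Frozen. The liver FFPE value lay inside the range of the other organs.

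The H2ac12 difference was 1.22 ± 0.33 (limma adjusted p = 0.00644). The H3 genes H3c15 (0.73 ± 0.25) and H3c1 (0.70 ± 0.26) were called with limma adjusted p of 0.0311 and 0.0493. No member had both liver libraries above the other 6, where 9.6% of all genes did, and none had both below (8.94% of all genes). The 63 members' median was -0.06 without liver Frozen, and then 0 were called higher and 2 lower. It was 0.19 without brain Frozen and 0.71 without liver FFPE. The count of 3 was 1 without brain Frozen or kidney Frozen, 8 without brain FFPE, 14 without liver FFPE and 0 with a variance that does not follow the level.

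The genes around the clusters gave other values. The 17 tested genes within 50 kb of a member that are not members had a median of 0.16 for brain minus the other organs (log2), -0.27 for heart, 0.08 for kidney and -0.05 for liver. The 43 genes between the blocks of chromosome 13, of which 35 are Vmn1r vomeronasal receptor genes, had medians of 0.48, -0.47, 0.18 and -0.19 in the same order. In all 4 organs these medians had the opposite sign to those of the members. Calls among the 17 neighbours were mixed. For liver 3 were higher and 0 lower, and for brain 4 were lower and 1 higher, mostly the members' direction. For heart 2 were lower and 0 higher, the opposite direction, and for kidney 1 was higher and 1 lower. The neighbours' liver and kidney medians also lay near those of all genes (-0.06 and -0.02). Most genes between the blocks had few counts. In each organ 6 of the 43 had at least 100 counts over the FFPE and Frozen pair, and 0 of the Vmn1r genes did. What part this low level has in the signs was not tested.

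The 14 housekeeping genes, by contrast, had medians of the members' sign in each organ. These were -0.49 for brain, 0.35 for heart, -0.17 for kidney and 0.23 for liver, with 4 called lower in brain, 4 higher in heart and 2 higher in liver. B2m, a light chain of class I molecules, was among them with -1.99 ± 0.24 in brain (limma adjusted p = 2.07e-07). Over all genes, 13.6% were called lower in brain, 9.42% higher in heart and 11.2% higher in liver. What part such shared shifts have in the members' differences was not tested.

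FFPE and Frozen libraries were compared over the 4 organs in the same model, with the organs as replicates. Of the members, 1 was higher and 2 were lower in FFPE by limma, where 2.0% of all genes were called higher and 1.91% lower. At an unadjusted p under 0.05, 1 member was higher and 15 were lower. The median difference of the members was -0.26 (log2, FFPE minus Frozen), against 0.02 for all genes, and 53 of 63 members were negative. The H2B genes were negative in 17 of 17 cases (median -0.39) and the H2A genes in 15 of 16 (median -0.42). The medians were -0.15 for H1, -0.06 for H3 and -0.24 for H4.

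H3c3, an H3 gene of block 3, was the member higher in FFPE. It had 3.93, 4.47, 3.99 and 4.35 log2 CPM in brain, heart, kidney and liver FFPE, against 2.54, 3.25, 3.01 and 3.81 in the matching Frozen libraries. All FFPE values lay above all Frozen values. The difference was 1.03 ± 0.26 (limma adjusted p = 0.0179), higher in 4 of 4 organs.

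H2bc12, an H2B gene of block 2, had 3.68, 3.16, 3.37 and 2.09 log2 CPM in brain, heart, kidney and liver FFPE, against 3.61, 4.61, 4.06 and 4.95 in the matching Frozen libraries. It was lower in 3 of 4 organs and the groups overlapped. The difference was -1.23 ± 0.32 (limma adjusted p = 0.019).

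H3c6 had 4.60, 5.17, 4.40 and 4.66 in brain, heart, kidney and liver FFPE, against 4.86, 6.08, 4.78 and 6.11 log2 CPM in the matching Frozen libraries. It was lower in 4 of 4 organs, with overlap between the groups. The difference was -0.75 ± 0.21 (limma adjusted p = 0.0311). It was 1 of 8 members lower in FFPE in every organ, where 10.4% of all genes were, and H3c3 was the 1 member higher in every organ, where 11.8% of all genes were.

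Without overlap between FFPE and Frozen, 1 member was higher (H3c3, with 3.07% of all genes) and 2 were lower (H2ac4 and H4c2, with 1.41% of all genes). Without either heart library 0 members were called, and without either kidney library 1 was lower and 0 higher. Without either brain library 12 were lower, with a median of -0.40, and 0 were higher without brain FFPE and 1 without brain Frozen. Without either liver library 1 was higher and 0 lower, and the median of the members was -0.04. With a variance that does not follow the level 0 were called.

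Within single organs there is 1 library of each kind, so no test was made, and genes with at least 40 counts over the pair were counted as different at a 2-fold ratio. The 4 organs did not look alike. In liver, 23 of 61 members were at least 2-fold lower in FFPE and 0 were higher, where 6.68% of all genes were lower and 6.95% higher. The median of the members was -0.84 (log2), against -0.02 for all genes, and 58 of 61 were negative. By type, 2 of 6 H1, 7 of 15 H2A, 8 of 16 H2B, 3 of 12 H3 and 3 of 12 H4 genes passed the ratio.

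**Figure D4:**
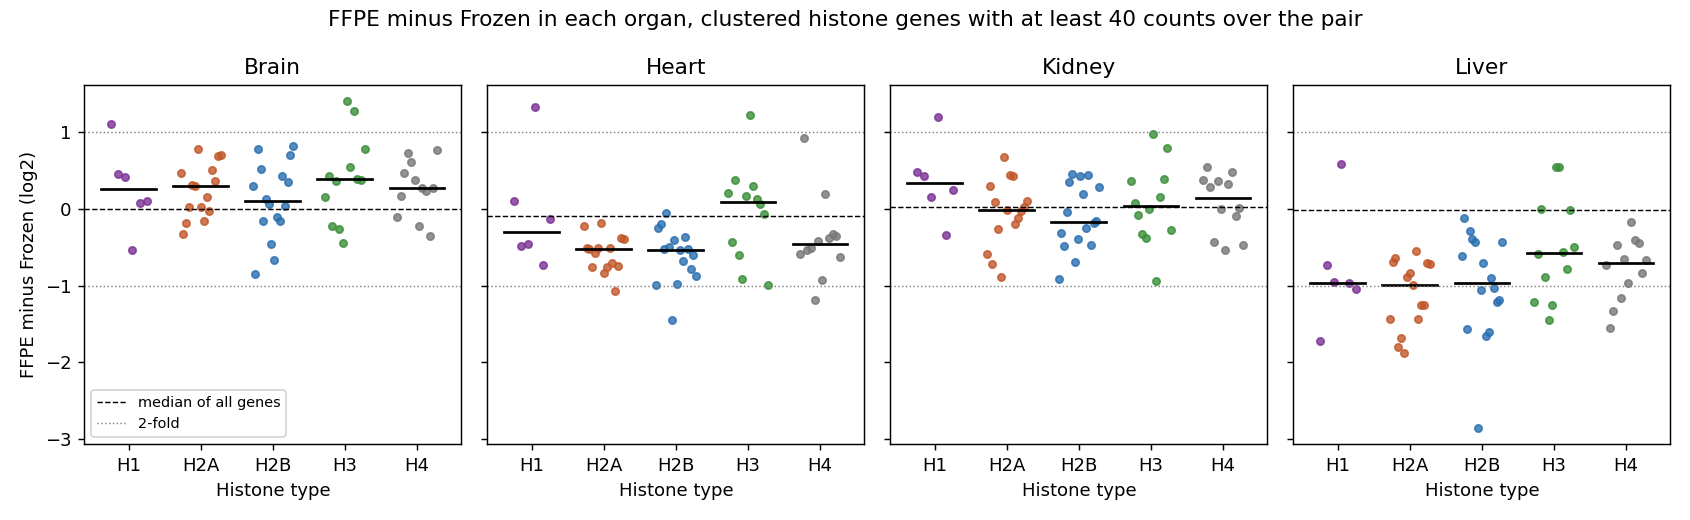
FFPE minus Frozen (log2) in each organ for the 61 members with at least 40 counts over the pair, by histone type, with a black bar for the median of the type, a dashed line for the median of all genes and dotted lines at 2-fold. In liver nearly all points lie below 0 and 23 lie at or below -1, while in brain 44 of 61 lie above 0.

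The smallest liver ratios were those of block 2 neighbours and of 1 gene of block 1. H2bc12 had 19 counts in liver FFPE and 174 in liver Frozen, an FFPE over Frozen ratio of 0.135 (exact 95% interval 0.0795 to 0.218). H2ac12, its divergent partner, had 61 counts in liver FFPE and 280 in liver Frozen, a ratio of 0.27 (0.201 to 0.357). H2ac23 had 68 and 296 counts in the same order, a ratio of 0.285 (0.215 to 0.372). These intervals cover counting error and say nothing of the spread between animals or preparations.

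The largest liver ratios were 1.5 for H1f6, 1.46 for H3c3 and 1.45 for H3c2. H1f6 and H3c3 thus differed from most members. Summed over all members, the level was 1764 CPM in liver FFPE and 3258 CPM in liver Frozen. H1f2 alone had 536 counts in liver FFPE and 1304 in liver Frozen.

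In heart, 3 of 61 members were at least 2-fold lower in FFPE and 2 were higher, where 3.86% of all genes were lower and 5.43% higher. The median was -0.51, against -0.09 for all genes. H2bc12 (ratio 0.363), H4c9 (0.437) and H2ac21 (0.475) were the lowest. H1f6 (2.53), H3c3 (2.34) and H4c12 (1.90) were the highest. The sum over members was 2256 CPM in heart FFPE and 3208 CPM in heart Frozen.

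In brain, 3 of 61 members were at least 2-fold higher in FFPE and 0 lower, where 2.53% of all genes were higher and 1.83% lower. The median was 0.29, against 0.00 for all genes. All 10 genes of block 5 were positive, with a median of 0.69. H3c3 (ratio 2.66), H3c1 (2.42) and H1f5 (2.16) were the highest, and H2bc14 (0.549), H2bc9 (0.627) and H1f6 (0.686) the lowest. The sum was 1825 CPM in brain FFPE and 1443 CPM in brain Frozen.

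In kidney, 1 of 61 members was at least 2-fold higher in FFPE and 0 lower, where 2.5% of all genes were higher and 2.76% lower. The median was 0.00, against 0.02 for all genes. H1f6 (ratio 2.30), H3c3 (1.98) and H3c14 (1.72) were the highest, and H3c2 (0.516), H2bc13 (0.528) and H2ac12 (0.54) the lowest. The sum was 1661 CPM in kidney FFPE and 1643 CPM in kidney Frozen. H3c3 was thus among the 3 largest ratios in all 4 organs, and H1f6 in heart, kidney and liver but not in brain.

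Other gene lists were set beside the members in liver, without a test. The median FFPE minus Frozen difference in liver was -0.45 for 14 housekeeping genes, -0.63 for 14 replication-independent histone genes and 0.13 for 16 proliferation genes such as Mki67 and Pcna. It was -0.35 for 10 H3K27 acetylation genes, -0.42 for 5 hepatocyte markers, -0.14 for 17 histone mRNA regulators and -0.17 for 13 chaperones. It was 0.26 for 16 neighbours within 50 kb, and 0.03 for the 13 of them with at least 100 counts over the pair. Of these, 4 replication-independent, 3 housekeeping and 2 acetylation genes, 2 hepatocyte markers, 1 regulator and 1 neighbour were at least 2-fold lower (6.68% of all genes). At least 2-fold higher were 1 replication-independent gene, 1 proliferation gene and 1 neighbour (6.95%). Medians of the other marker lists ran from -0.35 (erythroid) to 0.44 (testis germ cells). The spread over all genes was 1.83 in liver FFPE and 2.37 in liver Frozen, and mitochondrial genes took 12.7% and 5.29% of their counts. With all libraries set to the same median and spread, 21 of 61 members were at least 2-fold lower in liver FFPE, where 4.67% of all genes were. What part the spread and the mitochondrial reads have in the result was not tested.

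Genes that make or handle histones but are not members are given beside the shares of all genes called. In brain 8.73% of all genes were higher and 13.6% lower, and in heart 9.42% and 7.31%. In kidney these shares were 3.19% and 2.03%, and in liver 11.2% and 9.73%. By the limma F test 34.7% of all genes differed over the 4 organs. In the lists, 8 of 15 replication-independent histone genes, 5 of 17 regulators and 2 of 13 chaperones did. So did 3 of 16 proliferation and 1 of 10 acetylation genes. Of 15 replication-independent histone genes, 2 were higher and 3 lower in brain, 0 higher and 1 lower in heart, 1 higher and 0 lower in kidney, and 4 higher and 4 lower in liver. H2bu2, an H2B gene of this list that is not a member, was higher in brain by 2.63 ± 0.28 (log2, limma adjusted p = 2.68e-08). It had 6.35 log2 CPM in brain FFPE, 5.60 in brain Frozen and 2.59 to 4.26 in the other 6 libraries. Its placing as a replication-independent gene was not tested. H1f0, the linker histone gene of resting and differentiated cells, was lower in brain by 1.18 ± 0.24 and higher in liver by 0.84 ± 0.24.

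H1f10 was higher in brain (1.46) and lower in liver (-1.24). Cenpa, the centromeric H3 variant, was lower in brain (-1.28) and higher in liver (1.35). H1f7, a testis linker histone gene, was higher in kidney (1.90) and lower in heart (-1.67). H2aj was lower in brain (-1.14). In liver H2ax (0.68) and H2az2 (0.67) were higher, and H1f8 (-1.11), H2al2a (-1.96) and H2bu2 (-1.85) were lower. None of the 15 was called between FFPE and Frozen by limma, with 0 higher and 3 lower at an unadjusted p under 0.05. The differences of 14 of 15 were negative, with a median of -0.26.

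Of 17 regulators of histone mRNA and of the locus, 4 were lower in brain, 1 was higher in heart, none was called in kidney, and 2 were higher and 1 lower in liver. Slbp, which binds the histone mRNA stem-loop, had 5.06 log2 CPM in brain FFPE and 4.88 in brain Frozen, 6.10 in heart FFPE and 6.31 in heart Frozen, and 5.37 to 6.07 in kidney and liver. It was lower in brain by 0.82 ± 0.21 and higher in heart by 0.82 ± 0.21 (limma adjusted p = 0.0046 in brain and 0.00617 in heart). Cpsf3, the nuclease that cuts histone pre-mRNA, Nelfe and Cdk2 were the others lower in brain. In liver Cpsf3 and Nelfe were higher, and Pou2f1, which encodes Oct-1, was lower by 0.61 ± 0.20.

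Of 13 histone chaperones, Daxx (-0.77), Set (-0.66) and Ssrp1 (-0.62) were lower in brain and none was called elsewhere. Of 16 proliferation genes, Rrm2 (-0.73) and Pcna (-0.62) were lower in brain and Cdk1 (1.19) was higher in liver. Of 10 genes for H3K27 acetylation enzymes and readers, Kat2b (-0.67) and Brd2 (-0.75) were lower in brain and Kat2b (0.99) was higher in liver. None of the regulators, chaperones, proliferation genes or acetylation genes was called between FFPE and Frozen by limma. At an unadjusted p under 0.05, 2 of the regulators, 1 chaperone and 1 acetylation gene were lower and none was higher.

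The members include 10 divergent H2A and H2B pairs, whose annotated ends face each other across 163 to 280 bases. The Pearson correlation of the 2 genes of a pair over the 8 libraries had a median of 0.68 and ran from 0.32 (H2ac11 and H2bc11) to 0.92 (H2ac8 and H2bc8). The other 1943 pairs of members had a median of 0.61, and 577 of them in the same block had 0.67. All share the same 8 libraries, so these values are descriptions. The partners H2ac12 and H2bc12, with 0.51, parted most in liver FFPE, where H2ac12 had 3.75 and H2bc12 2.09 log2 CPM.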

How the data were processed

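H3K27Ac chromatin immunoprecipitation sequencing of 4 mouse organs was deposited as 1 table of 27179 genes and 8 columns. The labels describe 16 H3K27Ac samples, 2 in each of 8 groups, and 8 inputs, which were not analysed here. The submitters' processing notes name Bowtie2, featureCounts and limma, and the build mm10, with versions not given in the sources used here. No column carries a replicate number, and a column may hold 1 sample or a merge, so the 8 were taken as 8 libraries. The labels' 2 ChIP runs and 2 alternative library kits cannot be matched to columns.

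The deposited values are log2 CPM. Each value turned back into a whole number of reads (tolerance 0.001) once 0.5 per gene and the authors' effective library size were allowed for. Counts served for depth and intervals, and tests used the log2 values. The median gene had 87 to 119 counts per library.

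A model of organ and preservation was fitted in limma 3.58.1 (R 4.3.3) to the 26944 genes with at least 1 count, with a prior variance that follows the level, two-sided tests and Benjamini-Hochberg adjustment over all genes. The fit was also run on simulated counts with equal means in all organs and added FFPE changes that were the same in every organ. These counts lack the variation between organs that forms the residual here, so they cannot test the p-values of these data. Ratios have exact Clopper-Pearson 95% intervals. Alternatives were quantile normalization, equal median and spread, no variance trend, at least 80 counts, voom weights and leaving out each library.

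All 64 members matched the RefSeq table by identifier, 1 of them (H2bc24) under another symbol. Members and lists were chosen with earlier results of these data known. Named genes were every called member, the 2 highest and 2 lowest per type in level per kb, the 3 largest and 3 smallest ratios per organ, the testis-linked members and called genes of the lists for other histone genes, regulators, chaperones, proliferation, acetylation and housekeeping, the last given mostly as counts.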

Additional observations from a re-analysis of the deposited data

How the results depend on the processing

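No paired analysis was possible because the columns carry no replicate number, so FFPE and Frozen were matched by organ alone, through the organ term of the model. With a variance that does not follow the level, calls among members were 0 higher and 0 lower for FFPE, 1 lower for brain, 0 higher for heart, 0 lower for kidney, 0 higher for liver and 1 in the F test. Quantile normalization gave 1 lower for FFPE and 9 lower for kidney, and equal median and spread gave 9 lower for kidney. The members' median for FFPE minus Frozen over 4 organs was -0.23 after quantile normalization, with 18 of 63 positive. At equal median and spread it was -0.19, with 17 of 63 positive. Leaving out 1 library at a time, where the lone library of an organ is assumed to vary like the others, gave 0 to 1 higher and 0 to 12 lower for FFPE. It gave 0 to 1 higher and 1 to 18 lower for brain, 0 to 21 higher and 0 to 1 lower for heart, 0 to 16 lower for kidney, 0 to 14 higher and 0 to 2 lower for liver, and 7 to 35 in the F test. The brain median was then 0.01 without brain Frozen. Heart members at least 2-fold higher in FFPE were 1 with at least 100 counts, 0 after quantile normalization and 0 at equal spread. The members' median FFPE minus Frozen difference in heart was -0.30 after quantile normalization and -0.28 at equal spread. For all genes it was then 0.01 and 0.03. Kidney members at equal spread were 2 higher and 1 lower. In liver, 19 to 23 of the members were 2-fold lower under every scaling and minimum. Over 150 bases before the start, TATAAA was in 20.0% of H2B promoters (46.7% over 250 bases), and over all genes TATAAA was in 8.89%, CCAAT in 27.7%, the octamer in 1.17% and the H1 box in 4.12%. The cause of these changes was not tested. Of the called members, all kept their direction in each alternative, and 134 of 364 values were no longer past the threshold. Equal spread within an organ and the medians under each alternative were added after the data had been seen. Levels per kb of exon were not run, since the gene table used gives none. With 1 library per group and 5 to 23 counts, the testis-linked genes of block 4 allow no statement on organs.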

Other observations

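Markers of other cell types were read beside the members. Of 5 lymphocyte markers, the B-cell gene Cd79a (1.06 ± 0.29, log2, limma adjusted p = 0.0098) and the T-cell gene Cd2 (1.10 ± 0.35, limma adjusted p = 0.026) were higher in heart, and the other 3 were not called in any comparison. The heart differences of the 5 were positive for 3 and negative for 2, the lowest at -0.39. Of 5 erythroid markers, Alas2 (2.38 ± 0.34) and Klf1 (1.00 ± 0.23) were higher in liver, Alas2 was lower in heart (-1.10 ± 0.34), and Epor, the erythropoietin receptor gene, was higher in kidney (1.06 ± 0.25). The liver differences of the 5 were positive for 3 and negative for 2, the lowest at -0.62. Those in kidney were positive for 2 and negative for 3 (lowest -0.75), and those in heart were all negative. Alas2, the first enzyme of heme synthesis in red cell precursors, had 4.87 log2 CPM in liver FFPE and 5.07 in liver Frozen and 2.02 to 3.27 in the other 6 libraries. Of 5 testis germ cell markers none was called by limma in any of the 5 comparisons, with 3 values at an unadjusted p under 0.05. The part of such cells in the members' levels was not tested.

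H2ac10, with 0 counts in all 8 libraries, lies inside block 3 between H4c8 and H3c8, which had 2247 and 444 counts summed over the libraries. Whether reads shared with other copies were left out there was not tested.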
